A study of Homo sapiens with 6 samples.

Results

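The 10 genes described here encode small leucine-rich proteoglycans: LUM (lumican), DCN (decorin), BGN (biglycan), FMOD (fibromodulin), KERA (keratocan), EPYC (epiphycan), OGN (osteoglycin), PRELP, ASPN (asporin) and OMD (osteomodulin). They were taken by family membership, around LUM, which had been seen to be lower in the knockdown arrays of these same data. Each of the 10 had exactly 1 probe set annotated to it alone, so no choice between probe sets was needed, and they are 10 of 18417 genes measured that way. Their knockdown against control values are therefore given as a description, and LUM's carry no p-value.

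The arrays held RNA of MDA-MB231, an established cell line from a metastatic breast cancer, grown in serum-containing medium and harvested during logarithmic growth. The control group was 3 arrays of the parental cells, labelled as untreated. The other group was 3 arrays of cells in which G9a was stably knocked down, described as 1 clone and labelled as less metastatic. Because the parental cells were the control, effects of the knockdown, of picking 1 clone and of making a stable line cannot be told apart. The labels do not state that replicates were separate cultures, so the p-values here reflect the spread among these arrays, which may be technical.

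Small leucine-rich proteoglycans are secreted proteins of the extracellular matrix whose cores are built of leucine-rich repeats, many of them carrying chondroitin, dermatan or keratan sulfate chains. They bind fibrillar collagens and set fibril diameter and spacing, and several also hold growth factors or engage cell-surface receptors. In tumours they are mostly made by fibroblasts of the stroma, although some cancer cells make them too. G9a, the product of EHMT2, is a histone methyltransferase of H3 lysine 9, a mark of gene repression.

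The deposited values were log2 intensities, a relative scale on which a gene can be compared between arrays but not with another gene. EHMT2, the targeted gene, read 10.21, 10.27 and 9.93 on the parental arrays and 9.66, 9.59 and 9.51 after knockdown, so the groups did not overlap. Its difference, knockdown minus control, was -0.55 ± 0.10 (SE; limma, adjusted p = 0.0259), and the adjusted p was above 0.05 in 5 of the 6 fits that left out 1 array, up to 0.122. To describe the labelled line, 10 genes known to be active in it, such as VIM, CD44 and CAV1, were read. None of them lay among the lowest 33.3% of genes by mean, and none passed the test. SNAI2 had the largest difference (0.27 ± 0.09 SE, limma adjusted p = 0.133). It passed with a variance trend (adjusted p = 0.0483) and with array weights (0.0285). The summed log2 level of the 10 genes was 16.36 to 16.40 in control and 16.37 to 16.42 in the knockdown. These levels cannot identify the line, since only 5 of 10 luminal breast genes lay in that lowest 33.3%.

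The promoter table available from RefSeq (GRCh38.p14) held 6 of the 10 members and no entry for LUM, DCN, KERA or OMD. The 250 bases before the start site are printed for OGN, the member that was higher in the knockdown, and for BGN, whose promoter differed most from it in base composition. Both are written from 5′ to 3′ on the gene's own strand, and capitals mark CG dinucleotides and the core motif of the TATA box. That motif was searched on both strands as the letters TATAAA and their reverse complement, which reads as TTTATA.
OGN, chr9:92404700-92404949, minus strand: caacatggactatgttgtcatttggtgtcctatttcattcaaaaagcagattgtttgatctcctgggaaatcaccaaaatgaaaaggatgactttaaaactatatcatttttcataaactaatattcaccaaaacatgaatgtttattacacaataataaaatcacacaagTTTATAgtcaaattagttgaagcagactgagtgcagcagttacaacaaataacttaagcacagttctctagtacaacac
BGN, chrX:153494730-153494979, plus strand: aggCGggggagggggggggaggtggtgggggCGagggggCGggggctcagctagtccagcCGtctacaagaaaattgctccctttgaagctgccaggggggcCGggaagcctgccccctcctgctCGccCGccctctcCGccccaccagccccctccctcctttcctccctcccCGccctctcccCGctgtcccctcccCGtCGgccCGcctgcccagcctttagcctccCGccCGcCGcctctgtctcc
The OGN stretch, the more upstream of 2 listed starts, held no CG dinucleotide and 31.2% G and C, and it contained TTTATA. The BGN stretch held 16 CG dinucleotides and 74.0% G and C, and no TATAAA in either orientation. Among 35116 listed promoters the median was 11 CG dinucleotides over the same length, 6.06% had none, 41.0% had 16 or more, and 10.7% held TATAAA on either strand. EPYC and PRELP also had no CG dinucleotide, ASPN had 3 and FMOD 9, while TATAAA in either orientation was found in EPYC, OGN and FMOD. A match is only a run of letters, and the arrays measured no binding or chromatin mark at any of these promoters.

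LUM encodes lumican, a keratan sulfate proteoglycan best known from the cornea, where it keeps collagen fibrils thin and evenly spaced. It read 7.43, 7.60 and 7.87 in the 3 parental samples, and 6.05, 6.53 and 6.39 in the 3 knockdown samples. Every knockdown array lay below every control array, with a gap of 0.91 between the lowest control and the highest knockdown value. The means were 7.63 ± 0.22 and 6.32 ± 0.25 (SD, n = 3), a difference of -1.31 ± 0.14 (SE). The 95% interval ran from -1.64 to -0.98, and the knockdown intensity was 0.404 of that in control. Background was not separated from these intensities, so this ratio is not one of transcripts. The highest array was control replicate 3 and the lowest knockdown replicate 1. With 1 array left out at a time the difference ran from -1.41 to -1.17, and with both of those arrays removed, an alternative chosen after seeing the data, it was -1.05. Only 7 of the 18417 genes had a lower difference, a rank that follows from how LUM was picked. In RNA pooled from a whole culture, fewer cells with LUM transcripts and less LUM RNA per cell cannot be told apart.

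**Figure D1:**
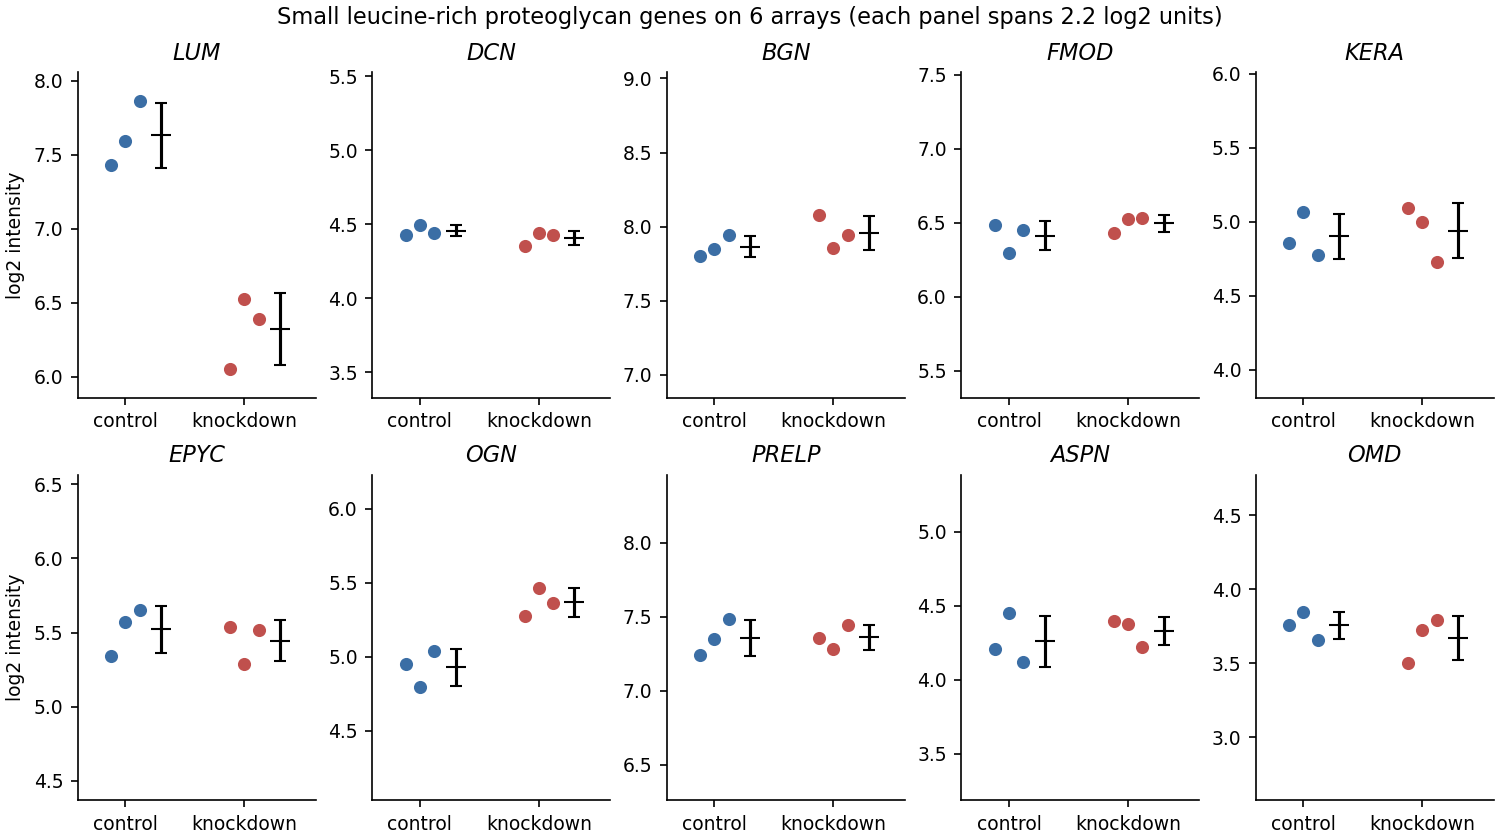
The 10 small leucine-rich proteoglycan genes on the 6 arrays: log2 intensity (vertical axis) of each control array (blue) and each knockdown array (red), with the group mean and SD (n = 3) as a black bar. The panels share 1 vertical span but are centred separately; the groups are apart for LUM (lower in the knockdown) and OGN (higher) and overlap in the other 8 panels.

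OGN encodes osteoglycin, also called mimecan, a small proteoglycan named for bone but made in many connective tissues. It read 4.95, 4.80 and 5.04 in the parental samples, and 5.27, 5.47 and 5.36 in the knockdown samples, so here every knockdown array lay above every control array, by 0.23 at the nearest. The means were 4.93 ± 0.12 and 5.37 ± 0.10 (SD, n = 3), and the difference was 0.44 ± 0.08 (SE), 1.36-fold (limma over all genes, adjusted p = 0.0336). This call was not stable: the adjusted p was 0.0324 without control replicate 3, but 0.0830 when control replicate 1 was left out and 0.101 when control replicate 2 was. Leaving out knockdown replicate 1, 2 or 3 gave an adjusted p of 0.0711, 0.0972 or 0.130. It was 0.109 when every probe set was tested. The difference stayed between 0.37 and 0.49 in the fits without 1 array.

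By the fit across all genes (limma, two-sided, adjusted p of 0.05), 1 of the 10 members was lower, LUM, and 1 was higher, OGN. Over all genes, 1.78% were lower and 1.28% higher at that threshold. The groups did not overlap for the same 2 members; over all genes, they did not overlap for 12.7% in the lower direction and 14.3% in the higher one. Since LUM was chosen from this contrast, nothing is read from these counts. The median difference of the 10 members was 0.02, against 0.03 over all genes.

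The other 8 members had differences from -0.08 to 0.09, with adjusted p from 0.545 to 0.987, and their 95% intervals together spanned -0.31 to 0.29. For each of these 8 genes the interval left out a measured difference as large as that of LUM or OGN. Smaller differences remain possible. The low values of DCN, KERA, ASPN and OMD were not separated from background. A loss of expression may not be measurable for these genes, so their intervals cannot exclude one.

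Among the members closest to LUM in what they bind, FMOD, whose product binds type I collagen and guides its crosslinking, read 6.48, 6.30 and 6.45 in control and 6.43, 6.53 and 6.54 in the knockdown. KERA, the corneal keratan sulfate proteoglycan, read 4.86, 5.07 and 4.78 in control and 5.09, 5.00 and 4.73 in the knockdown. Both sets of values overlapped between the groups, with differences of 0.09 ± 0.07 and 0.04 ± 0.11 (SE). PRELP, which links basement membranes to connective tissue, stood at 7.36 ± 0.12 in control and at 7.36 ± 0.08 after knockdown (SD, n = 3). OMD, a keratan sulfate proteoglycan of bone, stood at 3.75 ± 0.09 and 3.67 ± 0.15 on the same terms, and its lowest array was knockdown replicate 1, at 3.50.

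The members that carry chondroitin or dermatan sulfate, and their relative ASPN, also overlapped between the groups. DCN, whose product binds transforming growth factor beta and growth factor receptors, read 4.43, 4.50 and 4.44 in control and 4.35, 4.44 and 4.43 in the knockdown. These were the tightest values of the family, all 6 arrays lying within 0.14, and the difference was -0.05 ± 0.06 (SE). BGN, whose product is a ligand of the Toll-like receptors TLR2 and TLR4, read 7.80, 7.85 and 7.94 in control and 8.08, 7.85 and 7.94 in the knockdown. Knockdown replicate 1 was the highest array for BGN, and without it the difference went from 0.09 to 0.03. EPYC, a cartilage member, had a difference of -0.08 ± 0.10 (SE), and ASPN, which lacks such a chain and has a run of aspartates, one of 0.07 ± 0.10 (SE).

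**Figure D2:**
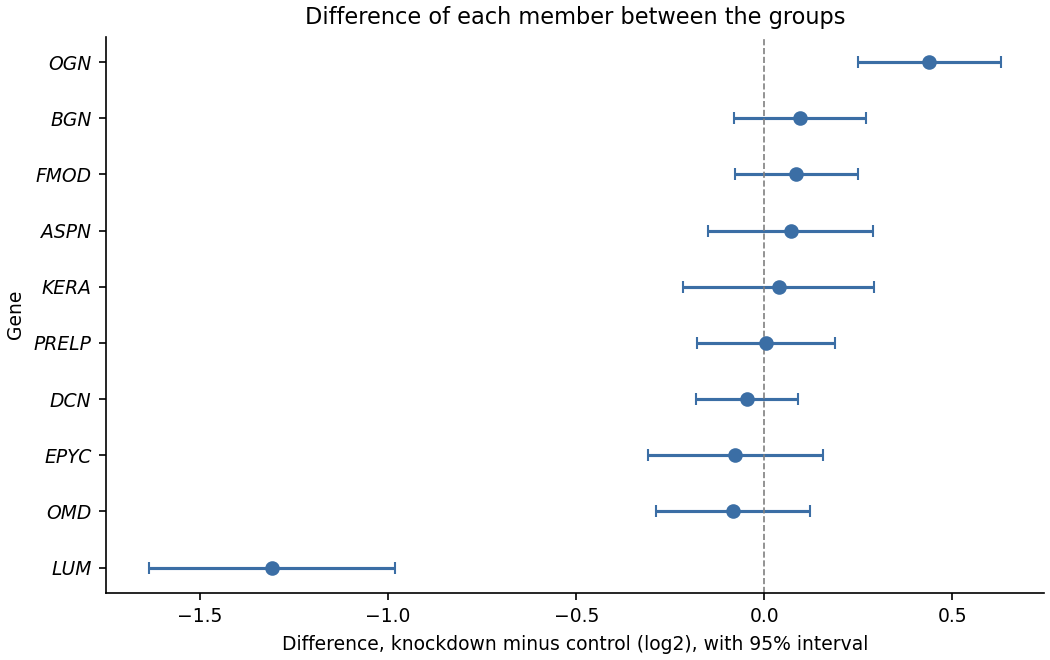
Difference of each of the 10 members between the groups, knockdown minus control on the log2 scale (horizontal axis), with its 95% interval from the limma fit, ordered by size. LUM is at -1.31, a value it was chosen for, so its interval shows spread only and is no test; OGN is at 0.44, and the intervals of the other 8 genes lie between -0.31 and 0.29.

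The levels behind these differences were low. Of the 10 members, 9 lay in the lowest 33.3% of genes by mean over the 6 arrays, LUM and OGN among them, and the exception was BGN. Probes differ in brightness, so this places no gene above another in transcripts. No detection call was used, and a low value was not separated from background, so for DCN, KERA, ASPN and OMD, with means below 5, a loss of expression may not be measurable. OGN had a control mean of 4.93, so its 1.36-fold ratio also rests on a control level that was not separated from background. In that lowest 33.3% of genes, 0.505% were lower and 0.7% higher at the threshold.

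Family members lie in groups along the genome, and their neighbours were examined in the gene order of RefSeq GRCh38.p14. EPYC, KERA, LUM and DCN follow each other on chromosome 12, OGN, OMD and ASPN on chromosome 9, and FMOD and PRELP on chromosome 1, counting tested genes only, while BGN is alone on chromosome X. LUM's adjacent genes were at 0.04 ± 0.11 (KERA) and -0.05 ± 0.06 (DCN), and the genes flanking the group of 4 were CCER1 (0.08 ± 0.07) and BTG1, an antiproliferative gene (-0.09 ± 0.11; all SE). Of the 10 tested genes on either side of the group, 14 of 20 had negative differences, where 59.6% of all genes were positive. Their median was -0.06. Of these 20, 1 was lower, RLIG1 (-0.44, limma adjusted p = 0.0134). Another 1 was higher, SOCS2, a feedback inhibitor of cytokine signalling (0.54, limma adjusted p = 0.0216). Both were named after their values were seen. At the same threshold 1.78% of all genes were lower and 1.28% higher, and nothing is read from these 2 calls.

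The chromosome 9 group was read in the same way for OGN. Its neighbour OMD was at -0.08 ± 0.09, and ASPN at 0.07 ± 0.10. The flanking genes were CENPP, a centromere protein gene (0.21 ± 0.13), and ECM2, a matrix gene related to the family (0.06 ± 0.07; all SE). Of 20 neighbours 16 had positive differences, with a median of 0.06, where 59.6% of all genes were positive, and none passed the test. None of the 20 neighbours of FMOD and PRELP passed either (13 positive, median 0.07), and CHIT1 at 0.12 and OPTC at -0.03 flank them. Nor did any of the 20 neighbours of BGN pass (14 positive, median 0.04). Since only 1.28% of all genes were higher and 1.78% lower, nothing is read from the absence of calls among so few genes. BGN is flanked by TREX2 at 0.02 and ATP2B3 at 0.17.

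**Figure D3:**
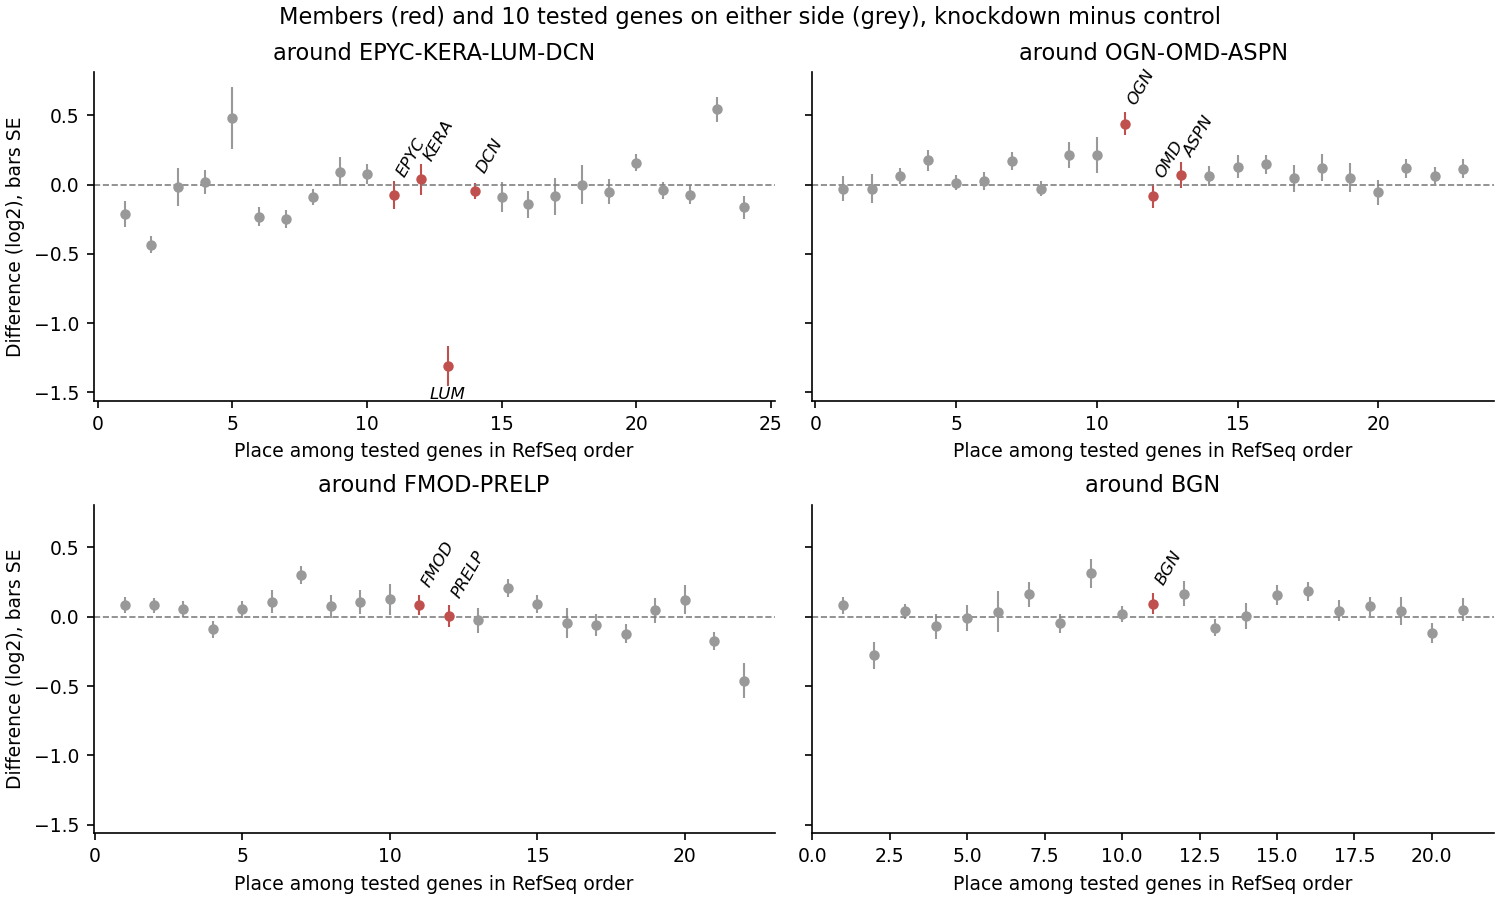
Difference, knockdown minus control (log2, bars SE), of the members (red) and of the 10 tested genes on either side (grey) in RefSeq gene order, 1 panel per group of members. The horizontal axis is the place in that order, not a distance; LUM at -1.31 stands below its neighbours KERA and DCN, and OGN at 0.44 above OMD and ASPN.

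The 5 genes whose profile over the 6 arrays was nearest to LUM, by root mean square distance after centring each gene on its own mean, were ATF7IP2 (distance 0.11), SLCO4C1 (0.12), ODAPH (0.14), HHIP (0.15) and LOX (0.15). Their differences were -1.20, -1.18, -1.09, -1.24 and -1.11. LUM was chosen for its fall and these genes for nearness to LUM, so their falls and shared high array largely follow from that choice. Each had its highest value on control replicate 3, as LUM did, but not every one had its lowest on knockdown replicate 1: HHIP was lowest on knockdown replicate 3. ATF7IP2 read 6.60, 6.90 and 7.04 in control and 5.23, 5.84 and 5.88 in the knockdown. Among the other members, OMD was nearest to LUM in profile, at a distance of 0.64 and rank 3404 among all genes, and EPYC and DCN followed at 0.65. OGN, at 0.89, was the farthest member, at rank 18187.

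**Figure D4:**
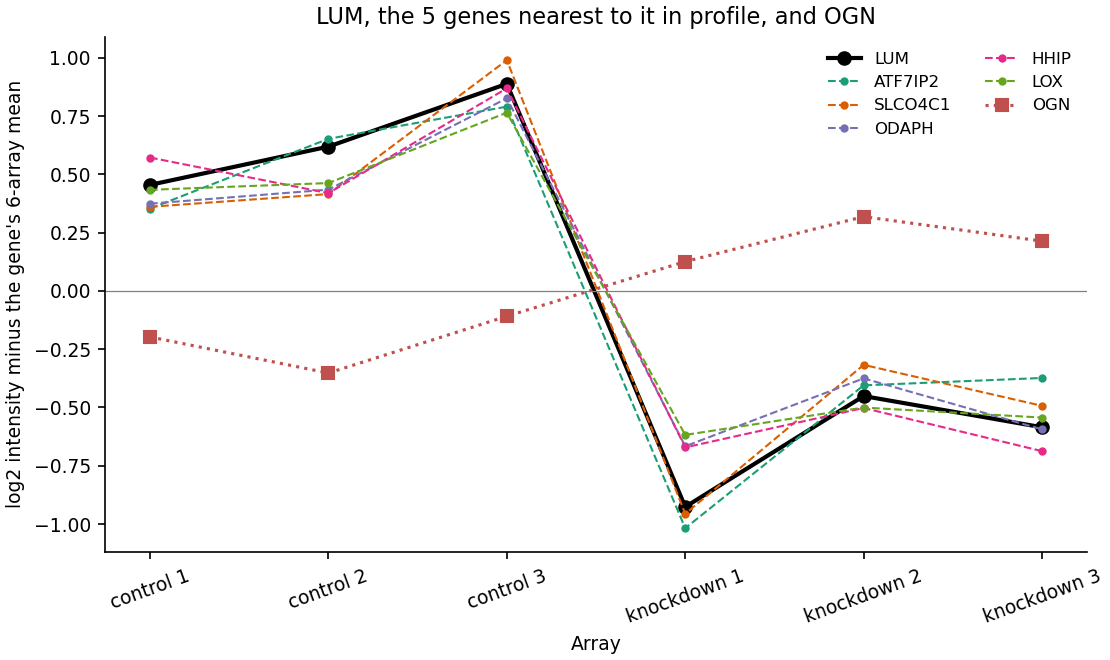
Log2 intensity minus the gene's own mean over the 6 arrays (vertical axis) on each array (horizontal axis) for LUM (black), the 5 genes nearest to it and OGN (red squares); lines only join the points of 1 gene. LUM and its 5 nearest genes are highest on control replicate 3 and low on all knockdown arrays, a likeness the 5 were picked for. OGN runs the other way with smaller steps.

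Genes that make, modify or bind these proteoglycans were taken as 6 lists of 125 genes, of which 124 were measured (SDC4 was not measured singly). In all, 5 were higher and 4 lower past the threshold, and the median difference was 0.07. Over all genes 1.28% were higher and 1.78% lower, with a median of 0.03, against which the counts and medians of each list are to be read. When every probe set was tested, the 4 lower genes passed and none of the 5 higher ones did. Of the 8 other small leucine-rich proteoglycans, 2 rose and 6 did not pass (median 0.12). PODNL1, a podocan-like gene, rose by 0.49 ± 0.06 (SE; limma, adjusted p = 0.0109), from 7.67, 7.77 and 7.79 to 8.24, 8.26 and 8.18, and the groups did not overlap. TSKU, encoding tsukushi, a secreted modulator of BMP and Wnt signals, rose by 0.40 ± 0.08 (SE; limma, adjusted p = 0.0483). The adjusted p of PODNL1 was 0.0506 when knockdown replicate 1 was left out, 0.0576 when replicate 3 was and 0.0526 with every probe set tested, and TSKU missed the threshold in every fit without 1 array (0.0913 to 0.116).

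Lumican, keratocan, fibromodulin and osteomodulin can carry keratan sulfate. Of 14 enzymes of keratan sulfate synthesis 1 rose, none fell and 13 did not pass (median 0.10). It was B4GALT4, a galactosyltransferase that extends the chain, at 0.35 ± 0.07 (SE, limma adjusted p = 0.0356). B4GALT4 lay in the lowest 33.3% of genes by mean, and it missed the threshold in every fit without 1 array (0.0625 to 0.111). Of 22 enzymes of chondroitin and dermatan sulfate synthesis, the chains of decorin and biglycan, none passed (median 0.03), and differences ran from -0.21 to 0.26. The largest was that of CHST15, a sulfotransferase, at 0.26 ± 0.06 (SE; limma, adjusted p = 0.0642). CHST15 passed after quantile normalization (0.0471), when the lowest 33.3% of genes were dropped (0.0313), with a variance trend (0.0212) and with array weights (0.0115).

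Among 29 genes of fibrillar collagens and fibril assembly, the structures these proteoglycans coat, 1 fell, none rose and 28 did not pass. LOX, the lysyl oxidase that crosslinks collagen and 1 of the 5 genes nearest to LUM, fell by 1.11 ± 0.09 on the log2 scale (SE; limma, adjusted p = 0.00329), from 10.63, 10.66 and 10.96 to 9.58, 9.70 and 9.65. It passed in every fit without 1 array. Of the 29 differences 26 were positive, where 59.6% of all genes were, and the median was 0.12 against 0.03 over all genes. Every fibrillar collagen gene of the list had its highest value on knockdown replicate 1, the array with the highest median (7.86). The share of positive differences without that array was not computed.

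Of 23 receptors and binding partners, 1 rose, 2 fell and 20 did not pass (median -0.01). ITGA2, the alpha subunit of a collagen-binding integrin that also binds lumican, read 11.78, 11.76 and 11.88 in control and 11.09, 11.11 and 11.22 in the knockdown. It fell by 0.67 ± 0.07 on the log2 scale (SE; limma, adjusted p = 0.00552). KDR, a VEGF receptor to which decorin can bind, fell by 0.64 ± 0.06 (SE; same adjusted p), and both passed in every fit without 1 array. TLR4, a receptor for biglycan, rose by 0.86 ± 0.14 (SE; limma, adjusted p = 0.0210), but missed the threshold without knockdown replicates 1, 2 or 3 (0.0563, 0.0616 and 0.104).

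Of 28 other proteoglycans and link proteins, 1 rose, 1 fell and 26 did not pass (median 0.07). GPC4, a heparan sulfate proteoglycan held at the cell surface by a lipid anchor, fell by 1.03 ± 0.07 on the log2 scale (SE; limma, adjusted p = 0.00318), from 8.93, 9.10 and 8.93 to 7.95, 8.04 and 7.87. It passed in every fit without 1 array. HAPLN1, which fastens proteoglycans to hyaluronan, rose by 0.71 ± 0.10 (SE; limma, adjusted p = 0.0120), with an adjusted p of 0.0676 when knockdown replicate 3 was left out.

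**Figure D5:**
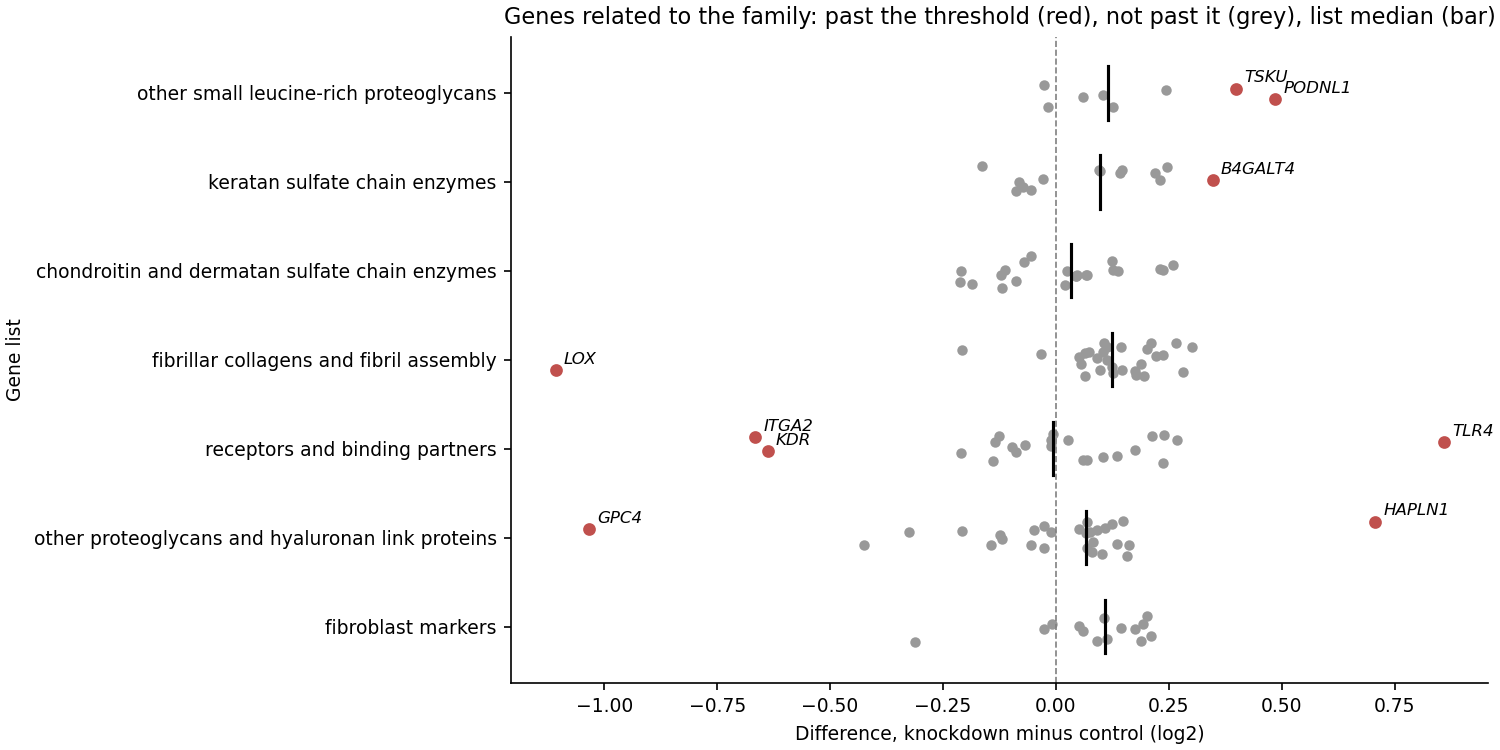
Difference, knockdown minus control on the log2 scale (horizontal axis), of each gene in the 6 related lists and of 14 fibroblast markers; each point is a gene, red where the limma adjusted p was below 0.05, and the vertical bar is the list median. LOX, GPC4, ITGA2 and KDR are the 4 genes that fell, and the list medians lie between -0.01 and 0.12.

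Because lumican and decorin are widely used as fibroblast markers, 14 other fibroblast genes were checked. None passed the test, and 11 of 14 had positive differences (median 0.11), where 59.6% of all genes were positive and their median was 0.03. Their summed log2 level was 10.69 to 10.94 in the parental samples and 10.81 to 10.96 after knockdown, so the groups overlapped. The largest single difference was that of POSTN, encoding periostin, at -0.31 ± 0.11 (SE; limma, adjusted p = 0.184). Of the 14 markers, 10 lay in the lowest 33.3% of genes by mean, and an intensity of 0 does not occur on this scale. The part of fibroblast RNA in the values of LUM was not tested. Of 10 luminal breast genes none passed either, KRT19 having the largest difference (-0.38 ± 0.10, SE; limma, adjusted p = 0.0800). KRT19 passed with the lowest 33.3% of genes dropped (0.0497), with a variance trend (0.0272) and with array weights (0.00921). The summed log2 level of the luminal list was 13.94 to 14.00 in control and 13.78 to 13.92 in the knockdown, without overlap. That sum is weighted towards the brightest genes of the list. The mean log2 level of the same 10 genes did overlap, at 8.60 to 8.64 in control and 8.53 to 8.67 in the knockdown. Of the 10 differences 6 were positive and 4 negative, with a median of 0.04. The part of the luminal list in the values of LUM was not tested.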

How the data were processed

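Per the labels, biotin-labelled total RNA of 6 samples was hybridised, 1 array each. The deposited log2 values, 1 per probe set and array, were summarised and scaled by the authors, with software, background correction and log base not given in the sources used here. That base was inferred from the range, 2.13 to 14.8. Of 33297 probe sets, 19460 carried 1 gene symbol, 1754 several, and 12083 were unlisted. Symbols were updated by Entrez number (19429 found in RefSeq). The probe set with the highest mean stood for a gene, giving 18417 genes.

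Differences came from limma 3.58.1 (R 4.3.3; lmFit and eBayes, no covariate), with Benjamini-Hochberg adjustment over all genes and a threshold of 0.05. The fit was run on simulated data with independent noise drawn from its own variance model. Such data cannot show how the fit handles effects shared by all genes of an array. Members and lists were chosen with earlier results of these data known. Named genes were the members, EHMT2, up to 3 passing genes per list or else the largest, the 5 nearest to LUM, and flanking genes; RLIG1 and SOCS2 were named after their values were seen. Replicate numbers are not stated to pair the arrays, and none was assumed in the main fit. Correlations of same-numbered deviations (-0.246, 0.122 and 0.0877) cannot settle this with 3 arrays per group. With the replicate number as a block, the SE of LUM's difference was 0.09 where the main fit gave 0.14. The number of arrays limits precision. Alternatives were other normalizations, filters, probe set rules, variance models, a replicate block and arrays left out.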

Additional observations from a re-analysis of the deposited data

How the results depend on the processing

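The 562 genes past the threshold became 972 when the lowest 33.3% of genes were dropped, 60 with every probe set tested, 1083 with a variance trend, 3328 with array weights, 217 with the replicate number as a block, and 343 with both control replicate 3 and knockdown replicate 1 removed, an alternative added after seeing the data. Without 1 array they ran from 44 to 535. The 9 calls in the related lists became 14, 4, 15 and 32 under the first 4 of these settings and 4 to 8 without 1 array. With every probe set tested, PODNL1 (adjusted p = 0.0526), TSKU (0.137), B4GALT4 (0.108), TLR4 (0.0889) and HAPLN1 (0.0595) missed the threshold, so that 0 of the calls were higher and 4 lower. EHMT2 missed the threshold with every probe set tested (-0.55, adjusted p = 0.0957) and ran from -0.66 to -0.49 without 1 array. With the replicate block, the adjusted p of OGN was 0.0818, of TSKU 0.0754 and of B4GALT4 0.0693.

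LUM's difference stayed within 1 SD of -1.31 in every fit that kept it, except with both arrays left out (-1.05). With the lowest 33.3% of genes dropped, BGN was the single member still tested. OGN was positive throughout. Members near 0 changed sign. PRELP was at -0.026 after quantile normalization, -0.017 after median centring and from -0.055 to 0.066 without 1 array. KERA was at -0.18 with array weights, -0.10 with both arrays left out and from -0.037 to 0.14 without 1. ASPN was at -0.11 with array weights and -0.032 with both left out. Without 1 array EPYC ran from -0.17 to 0.0034 and OMD from -0.14 to 0.00054. The causes were not tested. B4GALT4 missed the threshold after quantile normalization (adjusted p = 0.0651) and median centring (0.0537).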
